A study of Mus musculus with 30 samples.

Results

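The comparison described here was that of tianeptine with saline in the nucleus accumbens of mice with a nerve injury, taken as the libraries labelled TIAN-SNI and Saline-SNI. It used 11 of the 30 RNA sequencing libraries of the series, 6 from mice on tianeptine and 5 from mice on saline, each from the bilateral accumbens punches of 1 animal. All were male C57Bl/6J mice without a transgene or engineered allele named in the labels, and the sources used here gave no age. The TIAN-SNI mice had a tibial spared nerve injury (SNI) and, after 4 weeks, 3 weeks of intraperitoneal tianeptine at 30 mg/kg, 2 times a day. The Saline-SNI mice had the same injury and the same schedule of saline. A further 11 libraries, 6 of sham-operated mice on tianeptine and 5 of sham-operated mice on saline, gave the same drug comparison without the injury. The 8 libraries of mice on another antidepressant entered only the estimate of the spread.

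Tianeptine is an atypical antidepressant that acts as an agonist of the mu-opioid receptor, a receptor coupled to inhibitory G proteins that lower cyclic AMP. The accumbens is a relay of reward and pain affect in the ventral striatum. Most of its neurons are GABAergic medium spiny neurons, which carry D1 or D2 dopamine receptors and make dynorphin or enkephalin, the peptides encoded by Pdyn and Penk. In SNI, branches of the sciatic nerve are cut while others are spared, which gives lasting hypersensitivity of the paw and is used as a model of neuropathic pain.

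In a first library set, the 4 TIAN-SNI libraries held 26.4 to 37.69 M counts each and the 4 Saline-SNI libraries 27.45 to 33.11 M. A second library set, read from the numbering in the library names, held TIAN-SNI replicates 5 and 6, with 107 and 101.5 M, and Saline-SNI replicate 5, with 98.04 M. Within the first set the library numbers ran in unbroken blocks by group, so an effect of handling order and one of the drug cannot be told apart. The tissue markers fitted the label. All 20 medium spiny neuron markers were measured, with summed levels of 6554 to 11811 counts per M counts (CPM) in TIAN-SNI and 6651 to 11139 CPM in Saline-SNI. Markers of cortical excitatory neurons, a neighbouring tissue, varied within both groups, with 309 to 1282 CPM in TIAN-SNI and 266 to 1415 CPM in Saline-SNI. Their list score, the mean over members of centred log2 CPM, was above 0.8 in TIAN-SNI replicates 4 and 5 and in Saline-SNI replicates 2 and 5, and below 0 in the other 7 libraries. These 4 libraries were left out in 1 alternative that was chosen after seeing the data.

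With edgeR, no gene passed the test of a difference between tianeptine and saline in injured mice. Among 23736 genes tested, 0 passed an adjusted p of 0.05 with edgeR (0%), where the smallest adjusted p was 0.788, 0 passed with limma-voom, and 1 gene, Ppp1r15b, passed with DESeq2. At an unadjusted p under 0.05 there were 681 genes, fewer than the 1187 that a threshold of 0.05 gives by itself. Of these, 397 were higher with tianeptine (1.67% of the genes tested) and 284 were lower (1.2%). Over all genes 51.2% were higher, the median log2 fold change was 0.00, and the central 90% lay between -0.26 and 0.25. In 45 genes every TIAN-SNI library lay above every Saline-SNI library (0.19%), and in 28 every one lay below (0.118%).

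The data bounded the size of a difference for most genes. The 95% interval of the log2 fold change lay within 1 either way, or 2-fold, for 92.8% of genes, and within 0.58 either way, or 1.5-fold, for 74.6%. Of the 16685 genes whose mean log2 CPM reached 1, 90.1% had an interval within 1.5-fold. These intervals are not adjusted for the number of genes. The genes described from here on are those of smallest p, largest fold or known role in the drug's pathway, and none of them passed the edgeR test.

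**Figure D1:**
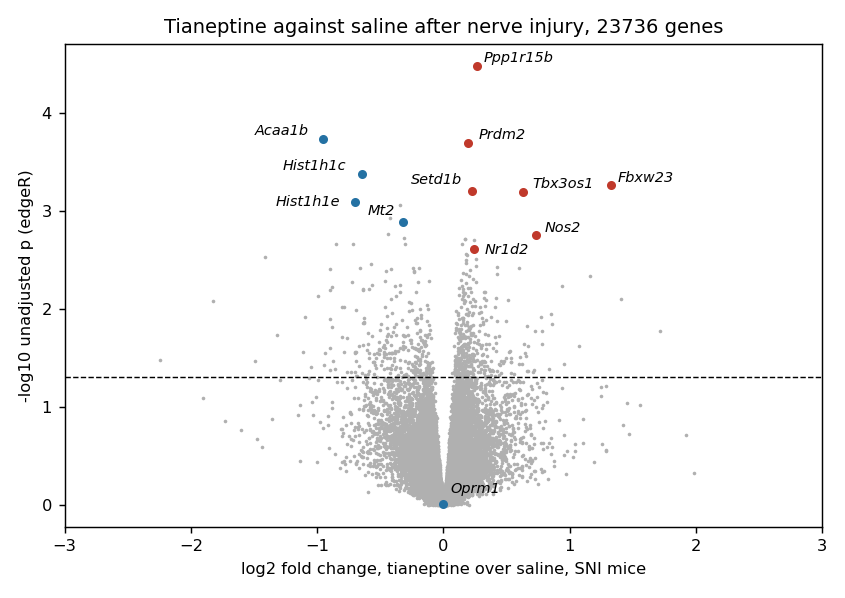
Log2 fold change of tianeptine over saline in SNI mice (horizontal axis) against -log10 of its unadjusted value in the edgeR model (vertical axis) for 23736 genes, 1 point a gene, with the dashed line at a value of 0.05. The named genes higher with tianeptine are red and those lower are blue; Oprm1, the receptor of the drug, lies at a fold change of 0.00.

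Ppp1r15b, whose product holds protein phosphatase 1 on the translation factor eIF2alpha and so keeps translation open, was the gene of smallest p. It lies on mm10 chromosome 1 from 133131143 to 133139783 and overlaps Gm26616 on the other strand, so that its counts are less certain. Its level in TIAN-SNI was 60.7, 71.8, 63.0, 58.7, 63.8 and 61.6 CPM in replicates 1 to 6. In Saline-SNI it was 53.7, 51.9, 50.6, 51.5 and 54.9 CPM. Every tianeptine library was above every saline library. The log2 fold change was 0.26 ± 0.05 (SE; edgeR adjusted p = 0.788, DESeq2 adjusted p = 0.034), and it was 0.29 within the first library set. In sham mice tianeptine gave 0.03 ± 0.05 for the same gene.

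Eif4ebp2 and Alkbh5 were also among the 10 higher of smallest p. Eif4ebp2, the brain form of the 4E-BP repressors of cap-dependent translation, averaged 82.4 ± 5.97 CPM (SD, n = 6) in TIAN-SNI and 72.7 ± 2.09 CPM (SD, n = 5) in Saline-SNI. Alkbh5, which removes N6-methyladenosine from RNA, averaged 63.4 ± 4.6 CPM (SD, n = 6) with tianeptine and 55.6 ± 3.53 CPM (SD, n = 5) with saline. Both had a log2 fold change of 0.17 ± 0.05. In both, the lowest tianeptine library was replicate 4, which lay within the saline range, at 71.2 CPM for Eif4ebp2 and 54.8 CPM for Alkbh5. Among 38 genes of the integrated stress response and the endoplasmic reticulum chaperones, the list that holds Ppp1r15b, 14 were higher and 24 lower, with a median of -0.02.

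Nos2, the inducible nitric oxide synthase, was rare in this tissue. It measured 0.69 to 1.01 CPM in TIAN-SNI, with a median of 0.82, and 0.39, 0.57, 0.62, 0.30 and 0.59 CPM in Saline-SNI. The groups did not overlap, and the log2 fold change was 0.73 ± 0.21 (edgeR). Ccdc117 and Tbx3os1, a noncoding gene that overlaps Tbx3 on the other strand, did not overlap between the groups either. Ccdc117 ran from 16.4 to 20.3 CPM in TIAN-SNI and from 13.3 to 15.9 CPM in Saline-SNI. Tbx3os1 ran from 3.05 to 4.63 CPM with tianeptine and from 1.97 to 2.75 CPM with saline. Fbxw23, an F-box protein gene, had the largest fold among the 10 higher genes, 1.32 ± 0.34, with 0.96 to 2.75 CPM in TIAN-SNI and 0.32 to 1.32 CPM in Saline-SNI.

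Enzymes that write or erase methyl groups on histone lysines were mostly a little higher with tianeptine. Of 48 such genes, 39 were higher and 9 lower, with a median log2 fold change of 0.06 against 0.00 for all genes. At an unadjusted p under 0.05, 7 of them were higher and 0 lower, where 1.67% and 1.2% of all genes were. None passed the edgeR test. In sham mice 26 were higher and 22 lower, with a median of 0.01.

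Prdm2, a methyltransferase of histone H3 lysine 9, had 84.0, 85.4, 79.5, 80.4, 89.6 and 87.5 CPM in TIAN-SNI replicates 1 to 6 and 72.1, 69.2, 72.5, 69.6 and 80.9 CPM in Saline-SNI replicates 1 to 5. Saline-SNI replicate 5 was the library of that group that reached into the tianeptine range. Its log2 fold change was 0.20 ± 0.05, and 0.22 in the first library set, where the groups did not overlap. Setd1b, which methylates histone H3 lysine 4, had 74.3 to 87.9 CPM with tianeptine (median 85.3) and 71.5, 70.0, 70.7, 66.0 and 76.8 CPM with saline. TIAN-SNI replicate 4 was the low library of its group, and the log2 fold change was 0.23 ± 0.06. The demethylases Kdm6b, of histone H3 lysine 27, and Kdm5c, of lysine 4, had log2 fold changes of 0.18 ± 0.05 and 0.10 ± 0.04. Kdm6b overlaps Kdm6bos on the other strand.

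Acetyltransferases and deacetylases showed no such lean. Of 28 genes 17 were higher and 11 lower, with a median of 0.00. The 2 at an unadjusted p under 0.05 were the acetyltransferases Kat6a, at 0.15 ± 0.04, and Ep300, at 0.16 ± 0.05. Of all genes, 1.67% were higher at that threshold. Kat6a averaged 106 ± 5.71 CPM (SD, n = 6) in TIAN-SNI and 94.5 ± 3.33 CPM (SD, n = 5) in Saline-SNI.

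**Figure D2:**
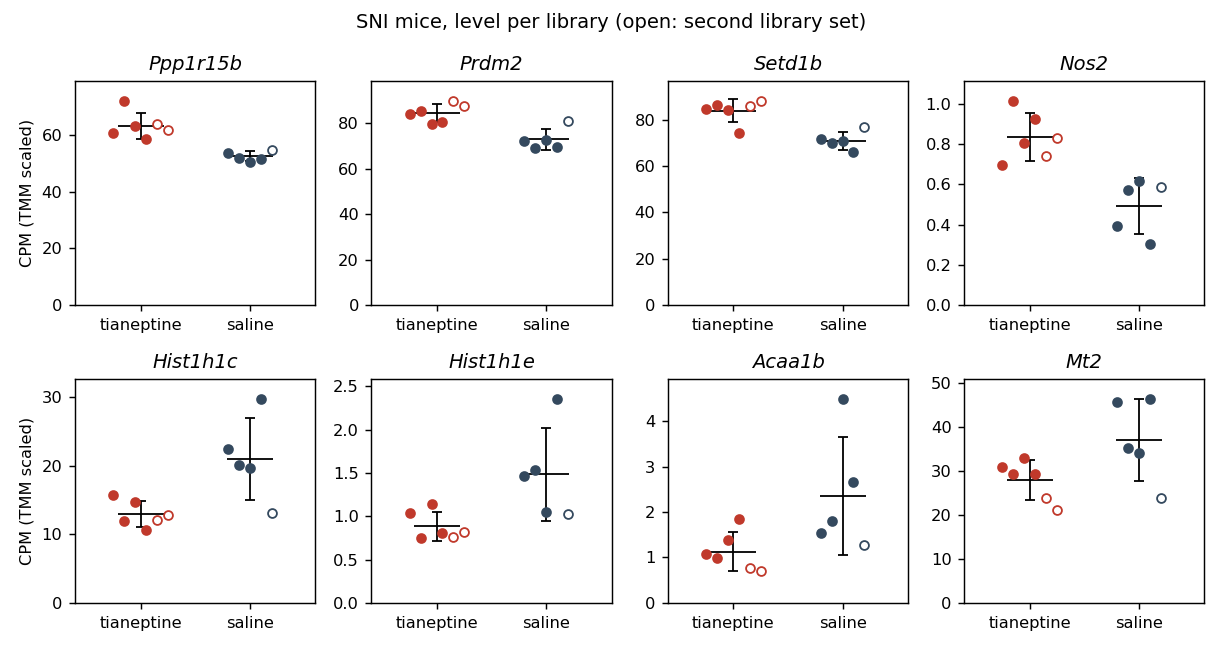
Level in TMM-scaled CPM (vertical axes, from 0) of 8 genes in each library of SNI mice, tianeptine left and saline right; filled points are the first library set, open points the second, and bars are the mean and SD. Ppp1r15b and Nos2 did not overlap between the groups, and in Hist1h1c the open saline point lies among the tianeptine points.

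Linker and variant histone genes leaned the other way. Of 17 tested, 2 were higher with tianeptine and 15 lower, with a median log2 fold change of -0.08, and 3 were lower at an unadjusted p under 0.05, where 1.2% of all genes were. In the second library set the list score went the other way, with -0.04 and -0.07 in TIAN-SNI and -0.13 in Saline-SNI. In sham mice 3 were higher and 14 lower, with a median of -0.05. Without Saline-Sham replicates 2 and 3, left out after seeing the data, 9 were higher and 8 lower in sham (median 0.00). Hist1h1c, a linker histone gene on mm10 chromosome 13 from 23738808 to 23740367, had 15.7, 12, 14.7, 10.6, 12.2 and 12.8 CPM in TIAN-SNI replicates 1 to 6. In Saline-SNI it had 22.5, 20.1, 19.8, 29.8 and 13.1 CPM. In the first library set every saline library was above every tianeptine library, while saline replicate 5 was among them. The log2 fold change was -0.65 ± 0.16 overall and -0.80 in the first set.

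Hist1h1e, another linker histone gene, ran from 0.75 to 1.15 CPM in TIAN-SNI, with a median of 0.81, and had 1.46, 1.54, 1.04, 2.35 and 1.03 CPM in Saline-SNI. Its groups overlapped through saline replicates 3 and 5, and it differed by -0.70 ± 0.18. In sham mice it differed by -0.53 ± 0.18. Hist1h1e shares its place with other genes on the same strand, so its few counts are uncertain. Hist2h2be, a core histone gene with polyadenylated transcripts, differed by -0.19 ± 0.09. In the second library set it had 8.04 and 8.06 CPM in TIAN-SNI and 7.10 CPM in Saline-SNI, the other way round. Canonical histone messages lack a poly(A) tail, so libraries of polyadenylated RNA see them only in part, and 3 of the 20 listed genes had too few counts to test.

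Metallothioneins are small metal-binding proteins induced by zinc, glucocorticoids and oxidative stress. Mt2, one of the 10 lower genes of smallest p, had 30.8, 29.2, 33.0, 29.3, 23.8 and 21.1 CPM in TIAN-SNI replicates 1 to 6 and 45.6, 35.1, 34.0, 46.3 and 23.8 CPM in Saline-SNI replicates 1 to 5. Within the first library set, every saline library was above every tianeptine library, and the 3 libraries of the second set were lower than the rest. The log2 fold change was -0.32 ± 0.09 overall and -0.39 in the first set. In sham mice tianeptine gave 0.23 ± 0.09. The difference between the 2 effects, -0.55 ± 0.12, was among the 4 of smallest p over all genes, but did not pass the edgeR test (adjusted p = 0.989). Mt1, which lies beside Mt2, differed by -0.18 ± 0.08, and Mt3, the form of neurons and astrocytes, by -0.12 ± 0.06. In the second set, Mt1 had 86.2 and 79.2 CPM in TIAN-SNI and 81.3 CPM in Saline-SNI, so neither it nor Mt2 was set apart there. Of all 21 metallothionein and oxidative stress genes, 9 were higher and 12 lower, with a median of -0.01. Mt2 overlaps Gm45774 on the other strand.

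The promoters of Mt1 and Mt2 are shown because the pair is a textbook case of control by metal response elements. Each runs from 250 bases before to 50 after the start (RefSeq, GRCm38.p6), with matches to the pattern TGCNCNC on either strand in capitals. This pattern is looser than the core of the element, TGCRCNC, where R is A or G, so not every match is a core.
Mt2, chr8:94172368-94172667, plus strand: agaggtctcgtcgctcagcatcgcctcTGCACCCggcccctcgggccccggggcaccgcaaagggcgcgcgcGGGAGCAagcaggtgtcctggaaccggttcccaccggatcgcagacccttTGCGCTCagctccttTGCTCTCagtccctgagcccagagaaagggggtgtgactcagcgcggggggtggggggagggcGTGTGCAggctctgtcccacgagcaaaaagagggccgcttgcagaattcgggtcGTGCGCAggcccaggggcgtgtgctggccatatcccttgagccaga
Mt1, chr8:94178839-94179138, plus strand: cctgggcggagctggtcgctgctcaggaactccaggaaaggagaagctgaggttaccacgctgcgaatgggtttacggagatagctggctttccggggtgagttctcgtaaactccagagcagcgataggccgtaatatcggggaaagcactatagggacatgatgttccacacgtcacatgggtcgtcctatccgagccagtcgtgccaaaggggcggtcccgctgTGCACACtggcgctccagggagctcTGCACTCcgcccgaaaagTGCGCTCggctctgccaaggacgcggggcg
The looser pattern matched 6 times in the Mt2 window and 3 times in that of Mt1, with no overlap between matches. At least 1 match is held by 51.3% of 32544 promoters of this length and at least 3 by 7.13%, and a match is a description of the letters only.

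Circadian clock genes were mostly a little higher with tianeptine. Of 24 such genes 19 were higher with tianeptine and 5 lower, with a median log2 fold change of 0.11, and 4 were higher at an unadjusted p under 0.05, where 1.67% of all genes were. In sham mice 17 were higher and 7 lower, with a median of 0.03. In injured mice Nr1d2, the nuclear receptor REV-ERB beta that represses Arntl, had the smallest p of the list. It had 137, 144, 138, 125, 151 and 167 CPM in TIAN-SNI replicates 1 to 6 and 120, 108, 109, 108 and 144 CPM in Saline-SNI replicates 1 to 5. Saline replicate 5 alone reached into the tianeptine range. Nr1d2 differed by 0.24 ± 0.07 in SNI and by 0.17 ± 0.07 in sham. The sham value was 0.18 ± 0.08 without Saline-Sham replicate 3, and 0.07 ± 0.06 without Saline-Sham replicates 2 and 3. These libraries were left out after seeing the data.

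Ciart, which encodes a protein that holds back transcription by CLOCK and BMAL1, had 8.91 to 11.9 CPM in TIAN-SNI, with a median of 9.41, and 9.22, 6.99, 6.85, 9.36 and 8.37 CPM in Saline-SNI. Saline replicates 1 and 4 were within the tianeptine range. Its log2 fold change was 0.26 ± 0.11 in SNI, and 0.56 ± 0.11 in sham. The related repressors Bhlhe40 and Bhlhe41 differed by 0.20 ± 0.09 and 0.23 ± 0.10 in SNI, and by 0.16 ± 0.09 and 0.24 ± 0.10 in sham. Bhlhe40 ran from 45.9 to 52.5 CPM in TIAN-SNI and from 38.2 to 45.5 CPM in Saline-SNI, without overlap. Bhlhe41 ran from 41.3 to 59.4 CPM with tianeptine and from 43.0 to 51.6 CPM with saline, with overlap. Both overlap a gene on the other strand.

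In the core loop of the clock, the PER proteins repress the transcription that CLOCK and BMAL1 drive. Per2, a repressor of the loop, averaged 59.8 ± 3.07 CPM (SD, n = 6) in TIAN-SNI and 52.0 ± 6.97 CPM (SD, n = 5) in Saline-SNI. Arntl, which encodes BMAL1, averaged 41.9 ± 3.31 CPM (SD, n = 6) with tianeptine and 47.8 ± 4.33 CPM (SD, n = 5) with saline. Per2 and Arntl were named after their values were seen. Their log2 fold changes were 0.20 ± 0.12 and -0.19 ± 0.11 in SNI, and 0.22 ± 0.12 and -0.32 ± 0.11 in sham. The time of day of collection is not given in the labels, and its part in these values was not tested.

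The promoters of Ciart and Bhlhe41 are shown with the E-box CACGTG, the element that CLOCK and BMAL1 bind, in capitals (RefSeq, GRCm38.p6).
Ciart, chr3:95882179-95882478, minus strand: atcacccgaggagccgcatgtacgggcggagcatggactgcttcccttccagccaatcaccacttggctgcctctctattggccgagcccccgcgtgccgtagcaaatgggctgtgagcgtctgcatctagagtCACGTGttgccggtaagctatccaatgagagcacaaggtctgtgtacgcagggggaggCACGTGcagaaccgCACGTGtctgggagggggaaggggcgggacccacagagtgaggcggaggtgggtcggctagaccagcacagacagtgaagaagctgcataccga
Bhlhe41, chr6:145865371-145865670, minus strand: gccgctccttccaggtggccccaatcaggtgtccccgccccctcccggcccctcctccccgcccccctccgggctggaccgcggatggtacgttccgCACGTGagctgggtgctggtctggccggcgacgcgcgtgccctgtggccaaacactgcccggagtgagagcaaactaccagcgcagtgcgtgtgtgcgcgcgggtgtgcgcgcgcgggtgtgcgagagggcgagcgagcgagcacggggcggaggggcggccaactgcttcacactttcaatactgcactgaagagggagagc
The Ciart window held 3 matches and that of Bhlhe41 held 1. The window of Nr1d2, the clock gene of smallest p, was also searched and held 0, and it is not shown. At least 1 match is held by 7.17% of the 32544 promoters, and 3 or more by 0.0891%. None of these windows matched the D-box TTANGTAA or the cyclic AMP response element TGACGTCA, which says only that these letters are not in them.

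**Figure D3:**
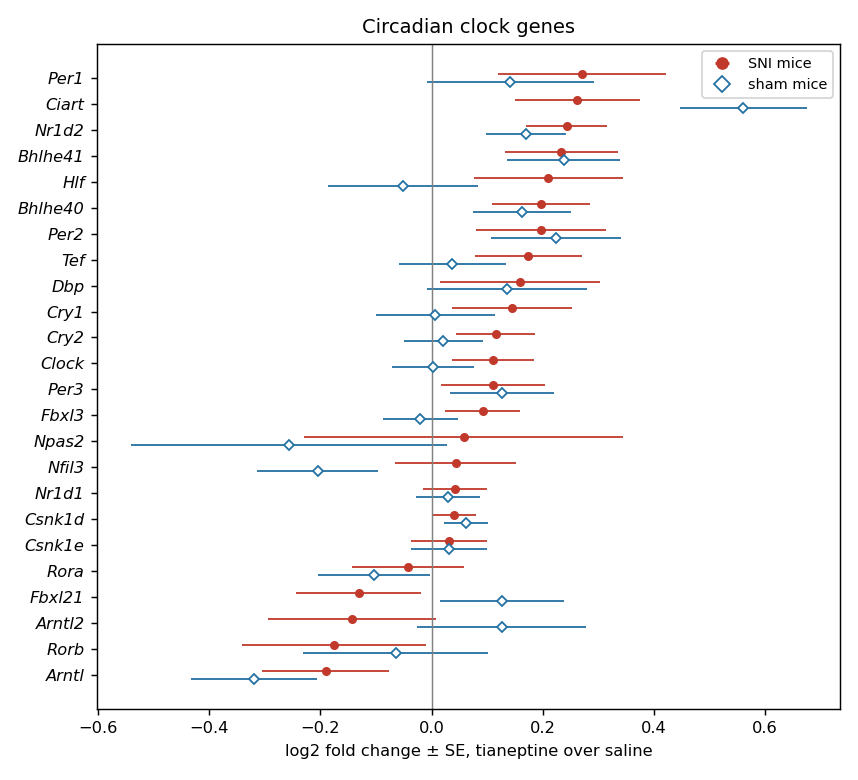
Log2 fold change of tianeptine over saline ± SE (horizontal axis) of 24 circadian clock genes, in SNI mice (red circles) and in sham mice (open blue diamonds). Of these, 19 were higher with tianeptine in SNI and 17 in sham, and Ciart had 0.26 ± 0.11 in SNI and 0.56 ± 0.11 in sham.

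Immediate early genes, which neurons transcribe within minutes of activity, had the largest median of the pathway lists but varied widely between animals. Of 32 genes 30 were higher with tianeptine and 2 lower, with a median log2 fold change of 0.31. At an unadjusted p under 0.05 there were 0 in either direction, and 0 passed the edgeR test. In sham mice 17 were higher and 15 lower, with a median of 0.06. The sham value moved with single libraries, which were left out after seeing the data. Without Saline-Sham replicate 3, 23 were higher and 9 lower (median 0.15), and without Saline-Sham replicates 2 and 3, 26 and 6 (median 0.20). Without TIAN-Sham replicate 6, 16 were higher and 16 lower in sham (median 0.00). Fos had 2.58, 20.5, 11.5, 30.3, 24.8 and 7.26 CPM in TIAN-SNI replicates 1 to 6 and 9.72, 13.9, 4.06, 15.3 and 7.32 CPM in Saline-SNI replicates 1 to 5. The lowest and the highest of the 11 libraries were both on tianeptine. Its log2 fold change was 0.69 ± 0.52, with an interval from -0.37 to 1.76.

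Arc, a synaptic immediate early gene, had 30.0 to 142 CPM in TIAN-SNI (median 98.1) and 28.4 to 86.5 CPM in Saline-SNI, and differed by 0.49 ± 0.38. The members of smallest p were Trib1, at 0.39 ± 0.19, Nr4a3, at 0.78 ± 0.38, Sik1, at 0.40 ± 0.20, and Egr2, at 0.94 ± 0.49. Sik1 had 0.44 ± 0.20 in sham mice. The list score was -0.56, 0.26, 0.10, 0.63, 0.60 and -0.21 in TIAN-SNI replicates 1 to 6 and -0.19, 0.11, -0.69, -0.13 and 0.08 in Saline-SNI replicates 1 to 5. The score moved with cortical markers within both groups. The cortical score was -1.46, -0.11, -0.99, 1.41, 1.33 and -1.32 in the TIAN-SNI libraries and -0.65, 0.83, -1.65, -1.17 and 1.92 in the Saline-SNI libraries, in the same order. With tissue scores, the cortical one among them, as covariates, 30 were higher and 2 lower, with a median of 0.27. Without the 4 libraries of highest cortical score, 27 were higher and 5 lower, with a median of 0.18. Leaving out 1 library at a time gave medians of 0.22 to 0.40.

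**Figure D4:**
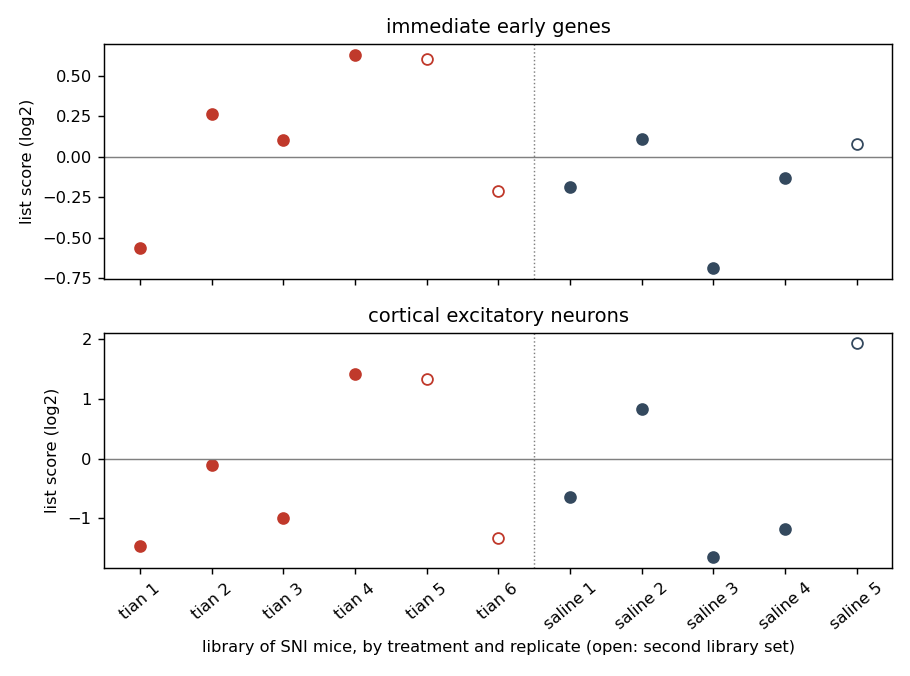
List score, the mean over members of centred log2 CPM (vertical axes), of immediate early genes and of cortical excitatory neuron markers in the 6 tianeptine and 5 saline libraries of SNI mice (horizontal axis); open points are the second library set. TIAN-SNI replicates 4 and 5 are high in both panels, and the saline replicate lowest in both is 3.

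Bdnf, a neurotrophin that cortical neurons supply to the striatum, followed the same libraries. It had 1.43, 1.73, 1.19, 12.5, 9.58 and 1.43 CPM in TIAN-SNI replicates 1 to 6 and 1.79, 4.46, 1.01, 1.18 and 14.3 CPM in Saline-SNI replicates 1 to 5. Its log2 fold change was 0.28 ± 0.69, with an interval from -1.14 to 1.70, and was -0.15 without the 4 libraries of highest cortical score.

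Opioid genes showed no difference that these libraries could resolve. Of 10 opioid peptide and receptor genes 5 were higher and 5 lower, with a median of 0.01, and none had an unadjusted p under 0.05. Oprm1, the mu-opioid receptor on which tianeptine acts, had 79.1, 79.1, 70.9, 65.1, 91.5 and 81.1 CPM in TIAN-SNI replicates 1 to 6 and 65.6, 59.4, 81.0, 86.5 and 83.9 CPM in Saline-SNI replicates 1 to 5. The groups overlapped almost wholly. Tianeptine over saline was 0.00 ± 0.15 on the log2 scale, with an interval from -0.31 to 0.30. Oprm1 overlaps Ipcef1 on the other strand.

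The delta and kappa receptor genes Oprd1 and Oprk1 differed by 0.16 ± 0.21 and 0.02 ± 0.25. Penk averaged 794 ± 253 CPM (SD, n = 6) in TIAN-SNI and 785 ± 187 CPM (SD, n = 5) in Saline-SNI. Pdyn averaged 262 ± 65.5 CPM (SD, n = 6) with tianeptine and 248 ± 56.5 CPM (SD, n = 5) with saline. Their intervals reached from -0.43 to 0.63 and from -0.59 to 0.85. Pnoc, the nociceptin precursor, had -0.34 ± 0.48 in SNI and 1.12 ± 0.50 in sham. Its SNI value ran from -0.55 to -0.13 with each library left out, and was -0.73 without the 4 libraries of highest cortical score.

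Downstream of the receptor, 20 of 29 genes for G proteins, arrestins, receptor kinases and RGS proteins were higher (median 0.05). In sham mice 13 were higher and 16 lower (median -0.01). Gnai3, an inhibitory G protein subunit, was the 1 member of 29 at an unadjusted p under 0.05, at 0.13 ± 0.06, where 1.67% of all genes were higher. Rgs9, which ends G protein signalling in striatal neurons, differed by 0.09 ± 0.33, with an interval from -0.60 to 0.77. Of 31 genes of cyclic AMP signalling 25 were higher and 6 lower, with a median of 0.07, and none had an unadjusted p under 0.05. In sham mice the list went the other way, with 10 higher and 21 lower (median -0.05). Pde4b, a cyclic AMP phosphodiesterase, averaged 205 ± 19.2 CPM (SD, n = 6) in TIAN-SNI and 178 ± 21.6 CPM (SD, n = 5) in Saline-SNI. Of 15 genes of feedback on ERK signalling 14 were higher, Spred2 among them at 0.10 ± 0.05. In sham mice 7 of the 15 were higher and 8 lower.

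Of 22 receptors for dopamine and other monoamines, 15 were higher, the median was 0.12 and there were none with an unadjusted p under 0.05. In sham mice 9 were higher and 13 lower (median -0.09). Drd1 had 116 to 261 CPM in TIAN-SNI (median 218) and 141 to 220 CPM in Saline-SNI, and differed by 0.24 ± 0.34. Drd2 had 80.5 to 185 CPM with tianeptine (median 146) and 96.4 to 181 CPM with saline, and differed by 0.10 ± 0.31. The lowest library in both genes was TIAN-SNI replicate 4, and both groups overlapped over most of their range. Htr2c, a serotonin receptor, averaged 168 ± 14.8 CPM (SD, n = 6) in TIAN-SNI and 145 ± 7.27 CPM (SD, n = 5) in Saline-SNI. Of 27 metabotropic glutamate receptor and postsynaptic scaffold genes 25 were higher, with a median of 0.07. In sham mice 7 were higher and 20 lower (median -0.07). Homer1, a scaffold of that list, differed by 0.25 ± 0.20.

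Markers of the main neurons of the accumbens also varied between the libraries. All 20 medium spiny neuron markers were higher with tianeptine, with a median of 0.11 and none at an unadjusted p under 0.05, and in sham mice 2 were higher and 18 lower, with a median of -0.20. With tissue scores as covariates 9 were higher and 11 lower. These scores were those of the medium spiny, the cortical excitatory and the septal neuron lists. The medium spiny neuron markers were thus adjusted for their own mean, so this count cannot say whether their lean holds. Without TIAN-SNI replicate 3, the library with the highest score, 13 were higher and the median was 0.03, and without Saline-SNI replicate 3, the lowest of its group, 16 were higher and the median was 0.04. Without TIAN-SNI replicate 4 or Saline-SNI replicate 2 all 20 were higher, with medians of 0.21 and 0.22. With the same covariates the monoamine receptors had 12 of 22 higher and a median of 0.01, while the metabotropic glutamate receptor and scaffold list had 23 of 27 and 0.06, and the ERK feedback list 13 of 15 and 0.10. In such bulk samples, fewer cells of a type and less RNA per cell cannot be told apart.

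Most nuclear-encoded genes of oxidative phosphorylation were slightly lower. Of 74 such genes 5 were higher and 69 lower, with a median log2 fold change of -0.07, and 4 were lower at an unadjusted p under 0.05, where 1.2% of all genes were. Ndufa5, a subunit of complex I, had 46.9 to 62.6 CPM in TIAN-SNI (median 59.7) and 67.3, 71.4, 63.2, 64.9 and 49.5 CPM in Saline-SNI. In the first library set every saline library was above every tianeptine library, and the log2 fold change over both sets was -0.12 ± 0.04. Ndufs6 and Ndufb7, of the same complex, differed by -0.14 ± 0.06 and -0.13 ± 0.06. In sham mice the list had 44 higher and 30 lower, and this split moved with single libraries, left out after seeing the data. It was 37 and 37 without Saline-Sham replicate 3, and 68 and 6 without Saline-Sham replicates 2 and 3. Without TIAN-Sham replicate 6 it was 54 and 20. In SNI mice the 13 transcripts of the mitochondrial genome itself were all higher, with a median of 0.06.

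Of 79 genes of the cytosolic ribosome, 71 were lower with tianeptine, with a median of -0.06 and none at an unadjusted p under 0.05. Rpl11 and Rpl36a, both of the large subunit, differed by -0.16 ± 0.09 and -0.10 ± 0.06. Nuclear long noncoding RNAs, which serve here as a sign of RNA handling, gave 9 of 10 lower and a median of -0.11. Malat1 had 284 to 912 CPM in TIAN-SNI (median 658) and 555 to 1149 CPM in Saline-SNI, and differed by -0.42 ± 0.21. Their part in the metabolic and ribosomal lists was not tested.

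Of 33 fatty acid oxidation genes 23 were lower (median -0.02). Acaa1b, a peroxisomal thiolase, had the smallest p of all genes lower with tianeptine. It had 1.08, 0.98, 1.38, 1.85, 0.77 and 0.71 CPM in TIAN-SNI replicates 1 to 6 and 1.54, 1.81, 4.49, 2.66 and 1.28 CPM in Saline-SNI replicates 1 to 5. The groups overlapped through TIAN-SNI replicates 3 and 4, and the level was near 1 CPM. Acaa1b differed by -0.95 ± 0.22, and by -0.98 in the first library set. Acaa1b overlaps Dlec1 on the other strand. Hadha, of the mitochondrial trifunctional protein, differed by -0.10 ± 0.05.

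The glucocorticoid receptor and its targets gave 20 of 25 genes higher and a median of 0.13. Without the 4 libraries of highest cortical score, 15 were higher and 10 lower (median 0.05). In sham mice 11 were higher and 14 lower (median -0.02). Without Saline-Sham replicates 2 and 3, left out after seeing the data, 17 were higher and 8 lower in sham (median 0.20). Sgk1, a kinase that glucocorticoids induce, was the 1 member of 25 at an unadjusted p under 0.05 in SNI, where 1.67% of all genes were higher. Sgk1 had 83.0, 60.3, 71.7, 84.1, 73.5 and 82.4 CPM in TIAN-SNI replicates 1 to 6 and 57.4, 63.7, 55.1, 57.9 and 56.5 CPM in Saline-SNI replicates 1 to 5. TIAN-SNI replicate 2 was the library of its group within the saline range. The log2 fold change was 0.38 ± 0.14 in SNI and -0.13 ± 0.14 in sham, and the 2 values did not differ past the threshold (edgeR).

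The remaining genes lower with tianeptine had small differences. Sdr42e1, of the short-chain dehydrogenase family, had 9.77 to 11.2 CPM in TIAN-SNI (median 10.1) and 12.1, 12.04, 11.3, 13.1 and 12.1 CPM in Saline-SNI. Its groups did not overlap, and it differed by -0.24 ± 0.08. Fxyd7, a brain regulator of the sodium pump, averaged 17.7 ± 2.8 CPM (SD, n = 6) with tianeptine and 24.1 ± 2.57 CPM (SD, n = 5) with saline. It differed by -0.46 ± 0.14 in SNI, and by 0.13 ± 0.15 in sham. Nat9, an acetyltransferase family member, differed by -0.19 ± 0.06, Opn4, which encodes melanopsin, by -0.57 ± 0.18, and Adam32, of the ADAM family, by -0.44 ± 0.13. The pseudogene Rpl22-ps1 differed by -0.41 ± 0.13, and its reads may come from Rpl22.

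Some genes were named for the size of their fold, among those whose mean log2 CPM reached 1 and that had an unadjusted p under 0.05. Tnc, the matrix protein tenascin C, had 1.94 to 3.49 CPM in TIAN-SNI (median 2.36) and 1.54, 1.93, 1.72, 1.12 and 2.38 CPM in Saline-SNI, and differed by 0.50 ± 0.19. Ccn1, a matrix-associated signalling protein, differed by 0.62 ± 0.28, with TIAN-SNI replicate 4 at 11.7 CPM against 2.78 to 6.39 CPM in the other 5 and 3.28 to 4.57 CPM in Saline-SNI. It differed by 0.30 without that library and by 0.07 without the 4 libraries of highest cortical score. On the lower side stood Robo3, an axon guidance receptor, at -0.94 ± 0.40, Col24a1, a fibrillar collagen, at -0.81 ± 0.29, and Galnt14, a glycosyltransferase, at -0.49 ± 0.22. Saline-SNI replicate 5, the library with the highest cortical score, had the highest level of all 3 in its group, with 9.28 CPM of Robo3, 9.14 CPM of Col24a1 and 47.2 CPM of Galnt14.

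The drug effect in injured mice was also set against that in sham mice. No gene passed this test of the difference with edgeR (0%), where the smallest adjusted p was 0.989. At an unadjusted p under 0.05 there were 997 genes (4.2%), and DESeq2 and limma-voom passed 0 as well. The genes of smallest p were Zfp366, Mt2, Rpl22-ps1 and Lamc1. Zfp366, a zinc finger corepressor, averaged 7.24 ± 1.09 CPM (SD, n = 6) in TIAN-SNI and 5.32 ± 0.795 CPM (SD, n = 5) in Saline-SNI, and its log2 fold change was 0.43 ± 0.14 in SNI and -0.44 ± 0.14 in sham. Lamc1, a laminin of the vessel basement membrane, had 0.11 ± 0.07 in SNI and -0.30 ± 0.07 in sham. Without Saline-Sham replicate 3, a library high in vessel and meningeal markers that was left out after seeing the data, the sham values were -0.37 for Zfp366 and -0.23 for Lamc1.

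Blood vessel markers were mostly higher with tianeptine in SNI and lower in sham, and the sham values rested in part on 1 library. Of 18 endothelial markers 15 were higher with tianeptine in SNI, with a median of 0.11, and 0 in sham, with a median of -0.31. Without Saline-Sham replicate 3 the sham count was 1 of 18 and the median -0.20, and without Saline-Sham replicates 2 and 3 it was 5 of 18 and -0.14. Slco1a4, a transporter of brain endothelium, had 49.4 to 73.2 CPM in TIAN-SNI (median 60.3) and 36.9 to 64.0 CPM in Saline-SNI, and differed by 0.30 ± 0.13. Flt1, a receptor of vascular endothelial growth factor, had 0.19 ± 0.12 in SNI and -0.42 ± 0.12 in sham. For mural cells 12 of 13 markers were higher in SNI (median 0.14) and 0 of 13 in sham (median -0.33). The mural score was 1.09 in Saline-Sham replicate 3 and -0.25 to 0.28 in the other 4 libraries of its group. Without that library 2 of 13 were higher in sham, with a median of -0.22. Acta2, the actin of smooth muscle, had 0.91 ± 0.59 in SNI and -1.30 ± 0.59 in sham, and 0.11 ± 0.44 in sham without that library.

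All 14 fibroblast and meninges markers were higher with tianeptine in SNI (median 0.35). Their summed level was 249 to 598 CPM in TIAN-SNI and 241 to 617 CPM in Saline-SNI, so the groups overlapped over most of their range. All 14 stayed higher with each library left out, with medians from 0.18 without TIAN-SNI replicate 3 to 0.60 without Saline-SNI replicate 1, and 0.21 without Saline-SNI replicate 5. In sham mice all 14 were lower (median -1.09), but Saline-Sham replicate 3 held 1823 CPM of these markers, against 218 to 637 CPM in TIAN-Sham and 221 to 639 CPM in the other 4 Saline-Sham libraries. Without it 6 were higher and 8 lower in sham, with a median of -0.07. In the second library set the list score was 1.001 and 0.084 in TIAN-Sham and -0.68 in Saline-Sham, the other way round. The tests of single genes did not pass in either comparison, and the part of meninges left on a punch in the vessel values was not tested.

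Among glia, 15 of 20 microglial markers were lower (median -0.08), but in the first library set 10 were higher and 10 lower (median -0.01), and without the 4 libraries of highest cortical score 11 were higher and 9 lower (median 0.01). Fcrls, a receptor of resident microglia, differed by -0.19 ± 0.07 in SNI and -0.29 ± 0.07 in sham, while Sall1, a transcription factor of microglial identity, had 0.17 ± 0.07 in SNI. Of 18 astrocyte markers 8 were higher and 10 lower. The astrocyte genes Sox9 and Cldn10 differed by 0.21 ± 0.08 and -0.22 ± 0.07.

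**Figure D5:**
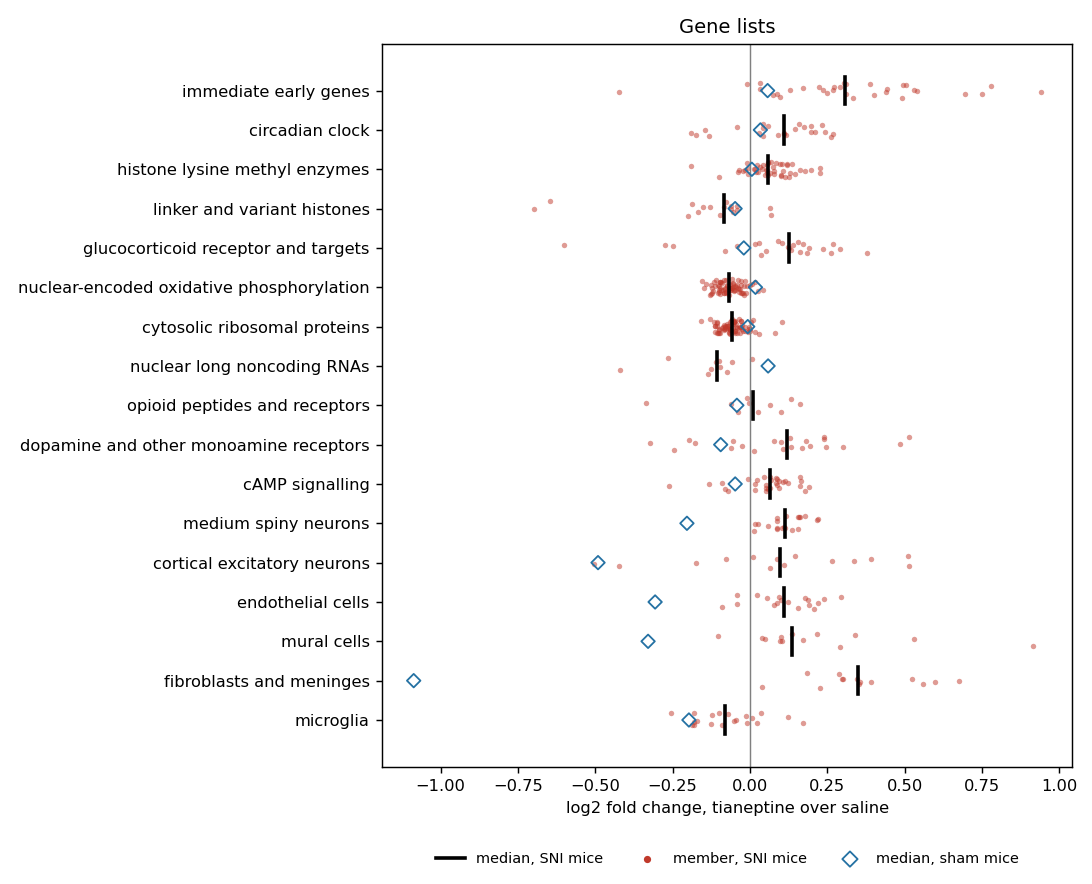
Log2 fold change of tianeptine over saline (horizontal axis) for the tested members of 17 gene lists in SNI mice (red points), with their median (black bar) and the median in sham mice (open blue diamonds). Immediate early genes have a median of 0.31 in SNI and 0.06 in sham, and fibroblast and meninges markers 0.35 in SNI and -1.09 in sham. Without Saline-Sham replicate 3 the sham medians were 0.15 and -0.07.

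No library is shared between the SNI and sham comparisons, so their directions were also compared in separate fits of 11 libraries each. Of 22170 genes tested in both, 49.3% had the same sign. Among 1149 genes at an unadjusted p under 0.05 in the SNI fit, 604 did (52.6%), and among the 100 of smallest p, 50 did. In both fits 26 genes had an unadjusted p under 0.05 with the same sign. These 26 lie within the 1149 by definition and were 2.26% of them. Their share of all genes tested in both, 0.117%, counts the same 26 and is therefore no background to compare with. Whether 26 is more than the thresholds give by themselves was not tested. The 26 include the clock genes Ciart, Per2, Bhlhe41 and Arntl, and also Hist1h1e, Fbxw23 and Fcrls.

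For scale, SNI against sham in mice on saline gave the following values for the same genes. That comparison shares the 5 Saline-SNI libraries, which stand on the other side of it, so a library high or low in that group moves both values in opposite directions. Ppp1r15b had 0.26 ± 0.05 for tianeptine over saline in SNI and -0.18 ± 0.05 for SNI over sham on saline. Setd1b had 0.23 ± 0.06 for the drug and -0.23 ± 0.06 for the injury, Sgk1 0.38 ± 0.14 for the drug and -0.37 ± 0.15 for the injury, and Mt2 -0.32 ± 0.09 for the drug and 0.46 ± 0.09 for the injury. The clock genes Nr1d2 and Ciart had -0.04 ± 0.08 and 0.13 ± 0.12 for the injury. Of all 24 clock genes, 9 were higher for the injury (median -0.06), while 19 were higher for the drug.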

How the data were processed

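RNA was measured in punches of the nucleus accumbens, and the deposited table held read counts per library for 55401 gene IDs. Per the submitters' processing notes, the authors used Trim Galore, HISAT2, SAMtools and featureCounts with the mouse build mm10; for versions, strand setting and annotation release, each was not given in the sources used here. A deposited FPKM table was not used, and 0 columns of per-sample values were otherwise left out. Symbols and positions were taken from GENCODE M21 (mm10), which matched 54349 IDs exactly and 792 without the version number.

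Groups came from the sample labels. The filterByExpr rule of edgeR kept 23736 genes, which hold 99.9% of the counts. Scaling was by trimmed mean of M values (TMM). A robust quasi-likelihood model (edgeR 4.0.16, limma 3.58.1, R 4.3.3) was fitted to all 30 libraries with a term for each group and another for the library set. The model had 23 residual degrees of freedom, and its common biological coefficient of variation was 17.5%. The contrasts were TIAN-SNI minus Saline-SNI, TIAN-Sham minus Saline-Sham and their difference, tested 2-sided with Benjamini-Hochberg adjustment over all genes and a threshold of 0.05. Adjusted p values are from edgeR unless another tool is named. Levels are CPM scaled by TMM, and log2 fold changes carry a standard error (SE) and a 95% interval.

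The named genes were the 10 higher and 10 lower of smallest p, the 4 higher and 4 lower of largest fold whose mean log2 CPM reached 1, up to 4 members of smallest p of each of 42 lists, the 4 of smallest p in the difference from sham, and a few genes fixed by name. Predicted models were not named, and the values of some genes that this rule picks are not reported here. Members, lists and tests were chosen with earlier results of these data known. Lists are described by counts and medians, with no test. Depth was 26.4 to 107 M counts per library, and no library was a near copy of another of its group (smallest chi-square per degree of freedom 7.51). Same-numbered libraries of the first set did not deviate together (correlations of 0.01, -0.22, -0.23 and -0.41), so the numbers were not taken to pair the mice. DESeq2 1.42.0 and limma-voom, other scalings and filters, each library left out and a replicate block were tried as alternatives. The sham libraries left out for a few lists were chosen after seeing the data. Promoters came from RefSeq (GRCm38.p6), and those of Ppp1r15b, Prdm2, Hist1h1c, Bhlhe40 and Nr1d2 are not shown. Figures were drawn with matplotlib.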

Additional observations from a re-analysis of the deposited data

Results flagged for a closer look

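In 152 groups of libraries, 1 group and 1 named gene at a time, 13 held a library far from the rest of its group (8.55%), where chance gives about 1 in 20. Saline-SNI replicate 5, from the second library set and with the highest cortical score, stood apart in 6 genes. It had 80.9 CPM of Prdm2 against 69.2 to 72.5 CPM in the rest, 9.14 CPM of Col24a1 against 5.93 to 6.40 CPM, and 27.2 CPM of Nr4a3 against 9.50 to 13.5 CPM. It also had 45.0 CPM of Ndufb7 against 60.5 to 64.1 CPM, 30.5 CPM of Sox9 against 18.8 to 21.8 CPM, and 14.3 CPM of Bdnf against 1.01 to 4.46 CPM. TIAN-SNI replicate 4, also high in the cortical score, stood apart in 3 genes. It had 74.3 CPM of Setd1b against 84.0 to 87.9 CPM in the rest of its group, 94.6 CPM of Ep300 against 112.0 to 121.2 CPM, and 11.9 CPM of Ciart against 8.91 to 9.86 CPM.

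The other 4 were all in the first library set. Saline-SNI replicate 3 had 51.6 CPM of Bhlhe41 against 43.0 to 44.7 CPM and 33.2 CPM of Sall1 against 26.8 to 27.9 CPM. Saline-SNI replicate 2 had 38.2 CPM of Bhlhe40 against 44.5 to 45.5 CPM. Saline-SNI replicate 1 had 7.79 CPM of Acta2 against 2.83 to 4.07 CPM. The causes were not tested.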

How the results depend on the processing

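The count of 0 passing genes was the same under every alternative except DESeq2, which passed 1, Ppp1r15b (adjusted p = 0.034); no cause was tested. The difference from sham stayed at 0 throughout. Genes at an unadjusted p under 0.05 numbered 681, against 1223 without a filter, 1154 with the 11 libraries alone, 1251 with tissue scores as covariates, 425 without TIAN-SNI replicate 2 and 1196 without TIAN-SNI replicate 4. For the difference from sham they numbered 997, against 1640 without a filter, 2106 in the first library set and 1518 without the 4 libraries of highest cortical score. With the replicate number as a block, 0 genes passed and 690 had an unadjusted p under 0.05 (880 for the difference), and it changed no call.

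Of the named genes, 7 close to 0 turned sign under at least 1 alternative. Oprm1 was 0.0061 with limma-voom, 0.0098 with the 11 libraries, 0.048 without the library set, 0.0091 in the first set and 0.036 with the block. Bdnf was -0.70 with limma-voom, -0.0028 without the library set and -0.15 without the 4 libraries. With tissue scores, Oprk1 was -0.057, Penk -0.041, Pdyn -0.072, Drd2 -0.055 and Rgs9 -0.037, and Oprk1 was -2.5e-05 with the block. The tissue scores include that of medium spiny neurons, which make these transcripts, and Rgs9 is a member of that list. Turns of sign under that setting are therefore no separate check of these genes. With each library left out, Oprm1 ran from -0.062 to 0.073, Oprk1 from -0.080 to 0.12, Bdnf from -0.79 to 0.79, Drd2 from -0.0056 to 0.25 and Rgs9 from -0.037 to 0.24. The named genes kept their direction and their side of the threshold in the other 1796 gene and alternative pairs, but for Ppp1r15b with DESeq2. Of the 42 list medians 18 turned sign under at least 1 alternative, those of microglia, choroid plexus and septal neurons among them. A low gene such as Nos2 or Acaa1b rests on few counts in each library.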

Other observations

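Other gene groups of the tissue showed little difference between tianeptine and saline in injured mice, and none of their genes passed the edgeR test. Interferon-stimulated genes were split, with 14 higher and 20 lower of 34 and a median log2 fold change of -0.03, while in sham mice 4 were higher and 30 lower, with a median of -0.49. That sham value rested on Saline-Sham replicates 2 and 3, with list scores of 1.002 and 0.939, against -0.38, 0.22 and -0.20 in Saline-Sham replicates 1, 4 and 5. Without both, a setting chosen after seeing the data, 22 were higher and 12 lower in sham (median 0.04). Of 21 cytosolic heat shock genes 8 were higher and 13 lower (median -0.02). Ionotropic glutamate receptors and their partners had 19 of 31 higher (median 0.04), GABA synthesis, transport and receptors 15 of 21 (median 0.05), and potassium channels 23 of 37 (median 0.06). For neurotrophins, secretogranins and growth factor peptides, 16 of 27 were higher (median 0.06).

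Among cell types, 20 oligodendrocyte and myelin markers were split evenly, with 10 higher and 10 lower (median -0.01), and 8 of 10 markers of oligodendrocyte precursors were higher (median 0.04). Interneuron markers had 4 of 12 higher (median -0.06) and cholinergic neuron markers 3 of 7 (median 0.00). Markers of neurons of the septum, preoptic area, hypothalamus and thalamus had 9 of 14 higher (median 0.15), but 5 of 14 in the first library set (median -0.06). Choroid plexus and ependyma markers had 9 of 13 higher (median 0.17), but 6 of 13 in the first set (median -0.05), 4 of 13 with tissue scores as covariates (median -0.08) and 4 of 13 without the 4 libraries of highest cortical score (median -0.23). In sham mice their median was 1.44, with 1266 CPM in TIAN-Sham replicate 6 against 194 to 293 CPM in the other 10 sham libraries, and 0.42 without that library. Peripheral immune cell markers, with summed levels of 37.1 to 57.4 CPM in TIAN-SNI and 25.4 to 52.6 CPM in Saline-SNI, had 6 of 13 higher (median -0.02).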
